A study of Zea mays with 6 samples.

Results

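The 5 maize genes described as abscisic acid 8'-hydroxylases, numbered 1 to 5 in the files and written abh1 to abh5 below, were followed in developing endosperm, the part of the kernel that stores starch and protein. They were selected on that description out of 39179 listed genes, and their choice was made with the results of this comparison known. Their differences between the lines are therefore given as descriptions with no test. The line under study was nacRNAi, labelled Ni4, which by its name carries an RNA interference construct against NAC genes, in the B73 inbred, and the comparison line was wild-type B73, called the non-transgenic sibling in the study's title. Endosperm of both lines was taken 20 days after pollination, and each line gave 3 RNA-seq libraries of 55812999 to 69670876 gene counts. The labels name no promoter for the construct and no second transgenic line, so an effect of the construct and a property of line Ni4 cannot be told apart. Whether the libraries came from separate plants or ears is not stated either. The p-values below therefore rest on a spread between samples that may not be the spread between plants.

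Abscisic acid (ABA) is the plant hormone of seed maturation, dormancy and drought response. Its 8'-hydroxylases are membrane-bound cytochrome P450 enzymes that take electrons from a NADPH-dependent reductase. They hydroxylate the 8'-methyl group on the ring of ABA, after which the product closes on itself to phaseic acid. This step is the main route of ABA breakdown in plants, and its rate together with that of synthesis from carotenoids sets the hormone level in the seed. All 5 genes carried the same terms for ABA 8'-hydroxylase activity, ABA catabolism, heme binding and membrane location in the deposited annotation. The 8'-hydroxylase term was on 8 genes in all.

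One gene carried nearly all of the transcript in wild type. Per length, abh3 (Zm00001d050021, chromosome 4, 60281640 to 60287213, minus strand; build not given in the sources used here) was at 10.7, 9.03 and 5.52 FPKM in the nacRNAi libraries and at 73.7, 90.4 and 79.9 FPKM in the wild-type libraries. FPKM are the authors' values, scaled to gene length and library size, but they do not follow from the read counts alone. For abh4, 14 counts in both nacRNAi replicates 2 and 3 stood beside 0.0809 and 0.169 FPKM, so the measures are not interchangeable. For abh3 the lines did not overlap, and the lowest wild-type library lay several times above the highest nacRNAi library. As read counts the gene had 1652, 1243 and 727 in nacRNAi and 13231, 15226 and 12084 in wild type. As counts scaled to library size with TMM factors (CPM), which centre most genes on no change, abh3 averaged 15.8 ± 5.07 in nacRNAi and 271 ± 40.2 in wild type (SD, n = 3 each). The log2 fold change was -4.10 (SE 0.29), or 17.1-fold lower in nacRNAi. The size depended on the scale, with -3.58 for library totals and -3.31 on log2(FPKM + 0.1). In bulk tissue, fewer cells of a type and less RNA per cell cannot be told apart.

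For abh1 the difference had the opposite sign. This gene (Zm00001d017762, chromosome 5, 206138068 to 206140902, plus strand) was at 8.41, 6.75 and 7.68 FPKM in nacRNAi and at 0.626, 3.08 and 0.828 FPKM in wild type. All nacRNAi libraries were above all wild-type libraries, but wild-type replicate 2 stood well above the other wild-type libraries. Counts were 1157, 807 and 893 in nacRNAi and 84, 428 and 96 in wild type. On the CPM scale the means were 12.6 ± 1.33 in nacRNAi and 4.15 ± 4.13 in wild type (SD, n = 3 each), a log2 fold change of 1.60 (SE 0.69). Without wild-type replicate 2 it was 2.83, and without each of the other libraries it stayed at 1.21 or more.

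The other 3 members were low in both lines. The gene abh2 (Zm00001d051554, chromosome 4, 162654597 to 162657413, plus strand) had 0.149, 0.149 and 0.177 FPKM in nacRNAi against 1.11, 2.50 and 0.905 FPKM in wild type. It had only 16, 10 and 14 counts in nacRNAi and 136, 289 and 81 in wild type, and the log2 fold change was -4.26 (SE 0.55). The lines were apart for this gene in every library, although wild-type replicate 2 was again the highest. Without that library the log2 fold change was -3.56. On log2(FPKM + 0.1) it was -2.51 and on log2(FPKM + 1) it was -1.06, scales that understate changes of genes this low. The median of all tested genes was also at 0.59 and 0.38 on these scales.

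The gene abh5 (Zm00001d005889, chromosome 2, 191792061 to 191795245, minus strand) had 0.0617, 0.0347 and 0.109 FPKM in nacRNAi against 0.267, 0.444 and 0.274 FPKM in wild type. Counts were 18, 7 and 26 in nacRNAi and 50, 82 and 53 in wild type, with a log2 fold change of -2.45 (SE 0.53). The lines were apart here too, at a depth where single counts matter, and the log2 fold change was -1.35 on log2(FPKM + 0.1) and -0.31 on log2(FPKM + 1). The gene abh4 (Zm00001d020717, chromosome 7, 129916943 to 129919846, minus strand) had 0.179, 0.0809 and 0.169 FPKM in nacRNAi against 0.208, 0.172 and 0.134 FPKM in wild type, and these values overlap. Its counts were 17, 14 and 14 in nacRNAi and 23, 28 and 12 in wild type. Its log2 fold change was -1.07 (SE 0.49) on the CPM scale, where the lines did not overlap, -0.54 with library totals as the scale and -0.04 on log2(FPKM + 1), so its size depended on the scale.

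**Figure D1:**
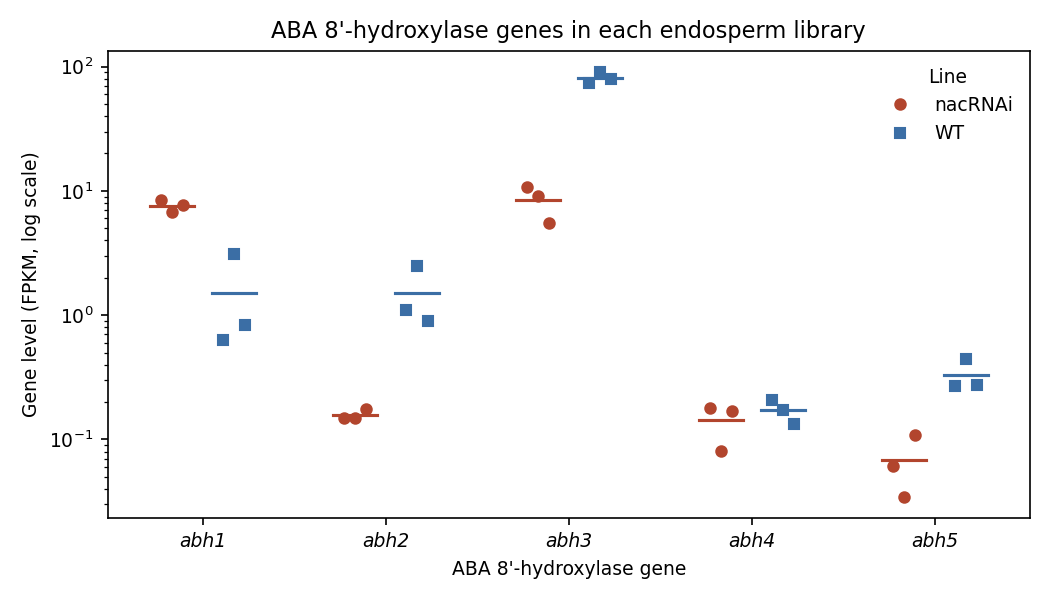
Level of each ABA 8'-hydroxylase gene in every library, in FPKM on a log axis. Circles are the 3 nacRNAi libraries, squares the 3 wild-type libraries and bars their means. The gene abh3 is at 5.52 to 10.7 FPKM in nacRNAi and at 73.7 to 90.4 FPKM in wild type, abh1 is higher in nacRNAi, and the 2 lines overlap for abh4.

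All 5 members passed the filter on low counts. On the CPM scale 4 were lower and 1 was higher in nacRNAi, and for all 5 the lines did not overlap, as was the case for 59.2% of all 22259 tested genes. Since the members were chosen with this contrast known, nothing is read from that count. Between lines, the order of the levels per length changed. In nacRNAi abh3 (8.40 ± 2.62 FPKM) and abh1 (7.61 ± 0.828 FPKM) did not differ beyond their spread. Below them came abh2 (0.159 ± 0.0162 FPKM) and abh4 (0.143 ± 0.0541 FPKM), also within their spread, and then abh5 (0.0685 ± 0.0377 FPKM), whose libraries overlapped those of abh4. On the CPM scale abh5 was not below abh4 in nacRNAi (0.226 ± 0.133 CPM for abh5 and 0.199 ± 0.00543 CPM for abh4). In wild type abh3 (81.4 ± 8.44 FPKM) stood alone, abh2 (1.51 ± 0.870 FPKM) and abh1 (1.51 ± 1.37 FPKM) were level, and abh5 (0.328 ± 0.0998 FPKM) was below both and above abh4 (0.171 ± 0.0371 FPKM; SD, n = 3 for each) in every library.

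The dominant isoform held a much smaller part of the family in nacRNAi. Of the summed FPKM of the 5 genes, abh3 made up 54.8%, 56.3% and 40.4% in the nacRNAi libraries and 97.1%, 93.6% and 97.4% in the wild-type libraries. The share of abh1 was 43.2%, 42.1% and 56.2% in nacRNAi and 0.824%, 3.19% and 1.01% in wild type. In nacRNAi abh3 was therefore the largest member in replicates 1 and 2 and abh1 in replicate 3, while abh3 was the largest in every wild-type library. As a share of raw counts the same member was the largest in each library, but the order below it differed in some libraries. In nacRNAi replicate 1, abh5 took 0.629% and abh4 0.594% of the counts, against 0.317% and 0.921% of the FPKM. In nacRNAi replicate 3, abh1 took 53.3% of the family's 1674 counts (95% Wilson interval 51.0% to 55.7%, counting error only), and abh3 took 43.4% (41.1% to 45.8%). The ratio of abh1 to abh3 in FPKM was 0.789, 0.748 and 1.39 in nacRNAi and 0.00849, 0.0341 and 0.0104 in wild type. Being a ratio within a library, it does not depend on how libraries are scaled.

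**Figure D2:**
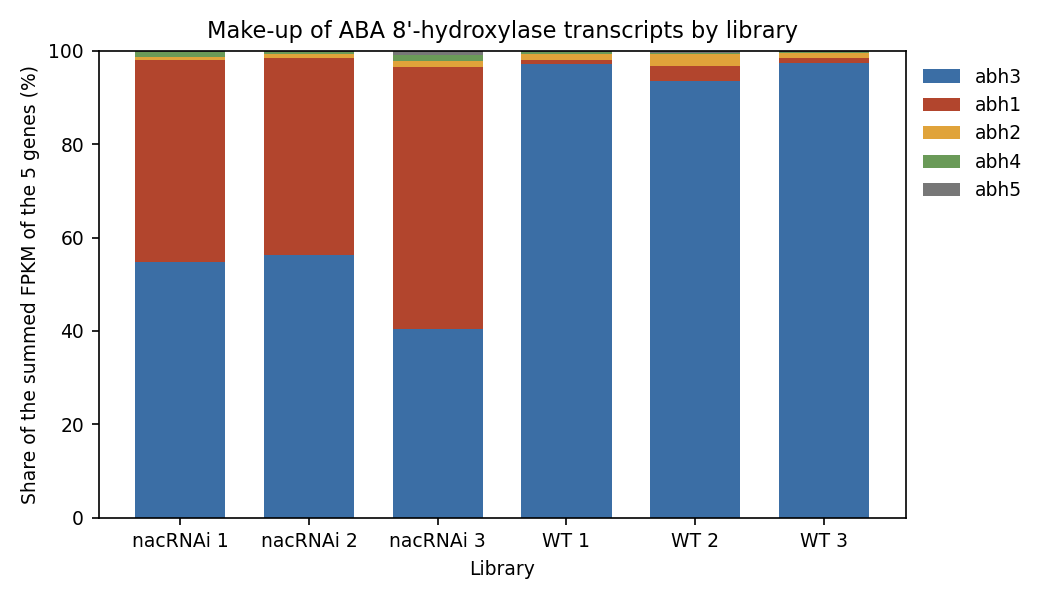
Make-up of the family by library, as the percentage of the summed FPKM of the 5 genes (vertical axis) in each nacRNAi and wild-type library (horizontal axis). The gene abh3 takes 40.4% to 56.3% in nacRNAi, where abh1 makes up nearly all of the rest, and 93.6% to 97.4% in wild type.

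The family as a whole was lower in nacRNAi. The 5 genes summed to 19.4, 16.0 and 13.7 FPKM in nacRNAi and to 76.0, 96.6 and 82.1 FPKM in wild type, and the means were 16.4 ± 2.91 FPKM in nacRNAi and 84.9 ± 10.6 FPKM in wild type (SD, n = 3 each), 5.18-fold lower in nacRNAi. On the CPM scale the sum was 9.66-fold lower. Without abh3 the other 4 genes summed to 8.80, 7.02 and 8.13 FPKM in nacRNAi and to 2.21, 6.20 and 2.14 FPKM in wild type. Among 250 cytochrome P450 genes, taken by description together with the 5 members, abh3 ranked 16 by mean FPKM in nacRNAi and 1 in wild type. By the same measure abh1 ranked 17 in nacRNAi and 33 in wild type. Of all listed genes, 18.1% were at or above the mean abh3 FPKM in nacRNAi and 1.57% in wild type, counting abh3 itself.

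On the CPM scale the members shared their highest wild-type library. Replicate 2 had the highest CPM of the 3 wild-type libraries for all 5 members, whereas 34.4% of all tested genes had their wild-type maximum there. In FPKM the same library was highest for 4 of the 5, against 27.1% of tested genes. This library also had the lowest summed level of 8 basal transfer layer genes, at 25.5 CPM against 62.6 and 65.3 CPM in the other wild-type libraries. Cells of that layer take up sugars at the kernel base. Most of the sum came from maternally expressed gene4, at 24.4 CPM in replicate 2 and 51.0 and 58.5 CPM in replicates 1 and 3. Other tissue lists, described below, differed in this library too. Replicate 2 had the highest summed CPM in wild type for the zein, embryo and oil body, aleurone and green tissue lists. For the aleurone list it was at 136 CPM, against 118 and 122 CPM in replicates 1 and 3. In FPKM it was highest for the aleurone list only, and lowest for the zein list and the embryo and oil body list. What part any of these tissues had in the members' levels was not tested. In nacRNAi no library was highest for more than 3 members.

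The lines and tissue were checked in the same libraries. The construct's targets were taken, from knowledge of the published study and not from the files, as NAC130 (Zm00001d008403) and NAC128 (Zm00001d040189). NAC130 was at 238, 227 and 222 CPM in nacRNAi and 1336, 1335 and 1054 CPM in wild type and fell (log2 fold change -2.44, SE 0.10, edgeR adjusted p = 4.22e-06). NAC128 was at 248, 300 and 283 CPM in nacRNAi and 309, 359 and 271 CPM in wild type, which overlap (-0.18, edgeR adjusted p = 0.245). In FPKM NAC128 was higher in nacRNAi, at 146, 175 and 171 against 109, 123 and 104 in wild type, with no overlap, so a fall of its transcript was not seen on either scale. Of 17 zein genes, which mark starchy endosperm, 16 were lower (13 with library totals), and their sum was 104997 to 118850 CPM in nacRNAi and 290382 to 330291 CPM in wild type. For the embryo, aleurone and green tissue lists the counts depended on the scale, and 24.0% of all tested genes were lower. Of 42 tested embryo and oil body genes (109 listed) 25 were lower and 3 higher, but 11 and 7 with library totals. Their sums were 1470 to 1806 CPM in nacRNAi and 2430 to 2606 CPM in wild type, and in FPKM 2528 to 3394 in nacRNAi and 2151 to 2726 in wild type. Of 3 tested aleurone genes 2 were lower, but all 3 were higher with library totals, and the sums of the 4 listed were 102 to 109 CPM in nacRNAi and 118 to 136 CPM in wild type, and in FPKM 98.3 to 114 in nacRNAi and 75.9 to 92.4 in wild type. Of 26 tested green tissue genes (67 listed) 9 were lower and 5 higher, but 7 and 9 with library totals, with sums of 80.3 to 90.6 CPM in nacRNAi and 91.7 to 101 CPM in wild type, and in FPKM 120 to 128 in nacRNAi and 81.7 to 92.4 in wild type. Of 4 tested basal transfer layer genes (8 listed) 1 was lower on both scales, with sums of 15.1 to 24.0 CPM in nacRNAi and 25.5 to 65.3 CPM in wild type, while in FPKM the sums overlapped (17.8 to 38.1 in nacRNAi and 12.3 to 42.1 in wild type). The 4 embryo surrounding region genes were too low to test, with sums of 0 to 1.66 CPM in nacRNAi and 0.0208 to 0.226 CPM in wild type. Genes with 0 counts in every library numbered 48 of the embryo and oil body list, 20 of the green tissue list, 1 of the basal transfer layer list (maternally expressed gene14) and 1 of the embryo surrounding region list (embryo surrounding region1). What part a shift between these cell types had in the members' levels was not tested.

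By their neighbours on the chromosome the 5 genes fell into a pair and a trio. Around abh1 and abh2, within 10 listed genes on each side, lay genes with the same 4 descriptions: a lipid phosphate phosphatase epsilon 2, a Rop guanine nucleotide exchange factor 14, an ornithine carbamoyltransferase and a soluble inorganic pyrophosphatase 2. Around abh3, abh4 and abh5, which all lie on the minus strand, were a remorin gene and an ABSCISIC ACID-INSENSITIVE 5-like protein 5 gene, the last a bZIP factor of the kind that acts downstream of ABA. The table lists 5 genes of that last description, and 3 of them lay 265, 204 and 34.2 kb from abh3, abh4 and abh5 with 2, 3 and 2 listed genes in between. This arrangement was noticed in the positions and is given without a test. No listed gene model overlapped a member. Sequence identity between members was not computed here, so reads shared between close copies remain a source of uncertainty for the low members.

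Beside each member of the trio the remorin gene rose, a call made for 23.2% of all tested genes. The description is on 24 listed genes, and the remorin genes elsewhere were not examined, so nothing particular to these places is read from the rise. Remorins are plant proteins of the inner face of the plasma membrane. The remorin gene near abh3 (Zm00001d050017) was at 19.6, 20.8 and 22.0 CPM in nacRNAi and 6.0, 5.47 and 5.92 CPM in wild type (a log2 difference of 1.84, SE 0.09, edgeR adjusted p = 9.12e-06). The one near abh5 (Zm00001d005881) was at 22.8, 27.1 and 24.6 CPM in nacRNAi and 4.32, 5.22 and 4.56 CPM in wild type (2.40, SE 0.11, edgeR adjusted p = 6.49e-06). The one near abh4 (Zm00001d020708) was at 7.75, 7.14 and 7.49 CPM in nacRNAi and 4.43, 4.85 and 4.40 CPM in wild type (0.71, SE 0.12, edgeR adjusted p = 0.00184). All 3 kept their direction and their call in every alternative run.

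The ABI5-like neighbours were less uniform. The one near abh3 (Zm00001d050018, chromosome 4, 60011623 to 60016737) was at 8.04, 8.25 and 8.84 CPM in nacRNAi and 4.02, 3.35 and 4.03 CPM in wild type, and it rose (log2 fold change 1.14, SE 0.13, edgeR adjusted p = 0.000306). Those near abh4 (Zm00001d020711, -0.35, edgeR adjusted p = 0.545) and abh5 (Zm00001d005884, -0.19, edgeR adjusted p = 0.541) did not pass, and on the CPM scale the lines overlapped for both. On log2(FPKM + 1) Zm00001d005884 passed as higher (0.42, limma adjusted p = 0.0239). In the pair, the lipid phosphate phosphatase gene near abh2 (Zm00001d051561) fell (-1.17, SE 0.24, edgeR adjusted p = 0.00502), a call lost on log2(FPKM + 1) (-0.23, limma adjusted p = 0.105). Its counterpart near abh1 (Zm00001d017767) was at 0.76 (edgeR adjusted p = 0.0405), a call lost whichever library was left out.

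Farther from abh3 lay a glucose-1-phosphate adenylyltransferase gene (Zm00001d050032, chromosome 4, 61315575 to 61321350), of the enzyme that makes ADP-glucose for starch. It was at 11.5, 10.8 and 11.4 CPM in nacRNAi and 2391, 2331 and 2522 CPM in wild type (log2 fold change -7.75, SE 0.09, edgeR adjusted p = 1.05e-08). Of the 10 tested genes on each side of abh3, 2 were higher and 5 lower, so 35% were called, against 47.3% of all tested genes. Around abh1, abh2, abh4 and abh5 the share called was 65%, 50%, 40% and 45% of 20. With 5 tested genes on each side it was 40% for abh3 and 40% to 50% for the other members. With 20 on each side it was 47.5% for abh3 and 50% to 65% for the others.

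**Figure D3:**
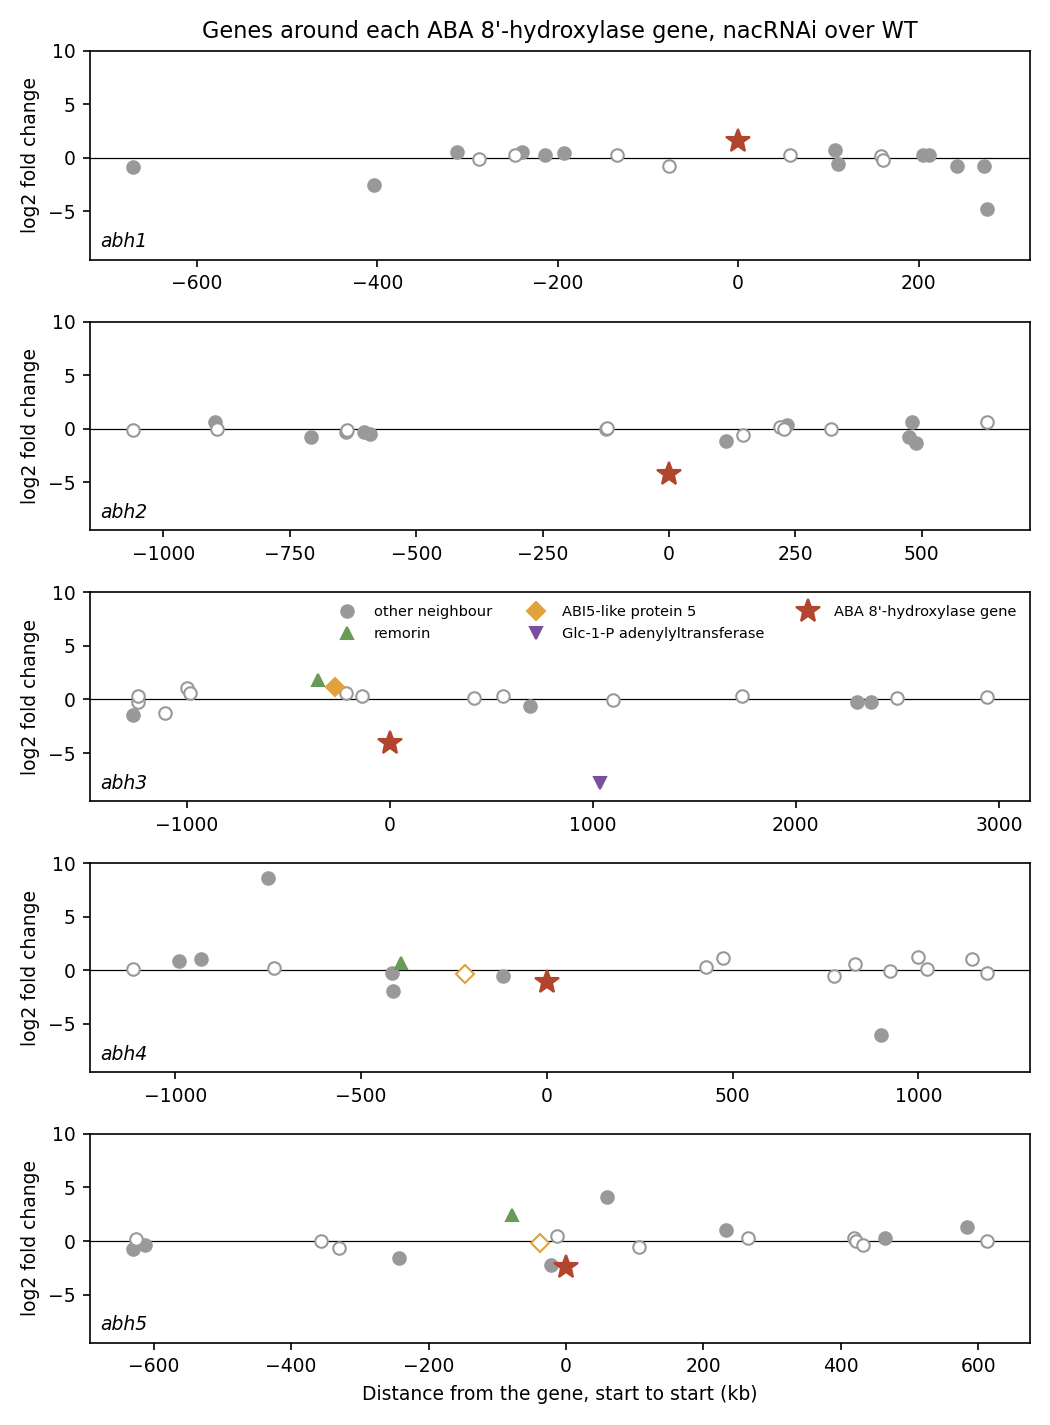
Log2 fold change, nacRNAi over wild type, of the 10 tested genes on each side of each ABA 8'-hydroxylase gene (star) against their distance in kb, 1 panel per member. Filled symbols have an edgeR adjusted p under 0.05 and open symbols do not; remorin genes (triangles) lie above 0 beside abh3, abh4 and abh5, and the adenylyltransferase gene is the lowest point beside abh3.

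Genes with profiles like those of abh3 and abh1 were looked up. Likeness was the root mean square difference between log2 CPM profiles over the 6 libraries, each centred on its own mean. The 5 nearest to abh3 differed by 0.115 to 0.195 log2 units. They were Zm00001d053639, which has no description, a 1,4-dihydroxy-2-naphthoyl-CoA thioesterase 1 gene (Zm00001d031220), senescence associated gene 20 (Zm00001d038029), an amino acid/polyamine transporter II gene (Zm00001d003422) and the cell cycle gene Cyclin-D5-1 (Zm00001d028092), with log2 fold changes of -4.44 to -4.06. Levels of Zm00001d053639 were 1.88, 1.84 and 0.934 CPM in nacRNAi and 25.2, 28.1 and 27.8 CPM in wild type. For abh1, added because of its share in nacRNAi, the 5 nearest genes differed by 0.205 to 0.231 and were all under 3 CPM. They included a probable receptor-like protein kinase gene (Zm00001d051314) and 1-aminocyclopropane-1-carboxylate synthase2 (Zm00001d002592), of ethylene synthesis.

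The 8'-hydroxylase term without the description was on 3 further genes, all at the edge of detection. Zm00001d034769, described as a cytochrome P450 of another family, had 11, 11 and 13 counts in nacRNAi and 2, 2 and 2 in wild type. Zm00001d011117, of the same description, had 1, 1 and 0 counts in nacRNAi and 0, 1 and 1 in wild type, and Zm00001d031208 had 6, 1 and 0 in nacRNAi and 4, 1 and 1 in wild type. The limit that a library's 0 sets is 3 counts, or 0.0361 to 0.0624 CPM by library.

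Around the breakdown step, 293 genes of ABA synthesis, transport, perception and response were listed by description in 9 lists. Of 187 tested, 55 were higher and 46 lower in nacRNAi, or 54.0% called, against 47.3% of all tested genes (23.2% higher and 24.0% lower, by edgeR at an adjusted p under 0.05 over all genes). The median log2 fold change was 0.13, against 0.00 for all tested genes. Directions in this list depend on the scale. Scaled by library totals alone, the median of all tested genes moved up by 0.52, and 100 of the listed genes were higher and 17 lower. On log2(FPKM + 1), where that median moved up by 0.38, 110 were higher and 12 lower. Protein phosphatase 2C genes made up 84 of the tested genes. Without them 28 were higher and 23 lower of 103, or 49.5%.

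Upstream, synthesis genes split. Of 15 tested, 3 were higher and 3 lower (8 and 3 with library totals), with a median log2 fold change of 0.49. The largest fall was in Zm00001d019376, described as an aldehyde oxidase/xanthine dehydrogenase molybdopterin binding protein, with 1.06, 1.34 and 1.52 CPM in nacRNAi and 27.9, 43.5 and 43.3 CPM in wild type (log2 fold change -4.87, SE 0.24, edgeR adjusted p = 1.47e-05). That description does not say which of the 2 enzymes it is, and only aldehyde oxidase makes ABA. A molybdenum cofactor sulfurase family gene (Zm00001d006340) fell by 2.41 and an ABA DEFICIENT 4 gene, of neoxanthin synthesis (Zm00001d008530), fell by 1.72 on the log2 scale. Zeaxanthin epoxidase2 (Zm00001d025545), which makes the epoxy carotenoids that ABA is cut from, rose by 1.59, aldehyde oxidase5 (Zm00001d018869) by 0.79 and aldehyde oxidase1 (Zm00001d034387) by 0.49. The cleavage dioxygenase gene viviparous14 (Zm00001d033222) was at 0.904, 0.699 and 0.892 CPM in nacRNAi and 0.242, 0.624 and 0.247 CPM in wild type and did not pass (1.16, edgeR adjusted p = 0.0774).

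Of 7 tested carotenoid precursor genes 3 were higher and 0 lower with edgeR, and 4 and 0 with DESeq2. With library totals it was also 4 and 0. At an unadjusted p under 0.05, 0 were lower with edgeR and with DESeq2, and the median was 0.41. Those higher included phytoene synthase2 (Zm00001d012394) at 1.05 and a phytoene desaturase gene (Zm00001d027936) at 0.45. Without nacRNAi replicate 2 or 3 only 1 of the 3 passed. Of 6 tested genes for ABC transporters G25 and G40, types that carry ABA in Arabidopsis, 2 were higher and 0 lower with edgeR and with DESeq2. With library totals 4 were higher and 0 lower, so the higher count depended on the scale. At an unadjusted p under 0.05, 0 were lower, and the median was 0.72. Zm00001d044443 was at 1.55. Without wild-type replicate 2 or 3, or nacRNAi replicate 1 or 2, 1 of them passed. The P450 reductases, which supply the hydroxylases with electrons, were lower in 2 and higher in 1 of 6 tested (1 and 3 with library totals), with a median of -0.06. The lower count was 1 without the filter on low counts and without each library in turn except wild-type replicate 2. The one with the smallest p (Zm00001d026483) fell to 36.5, 39.1 and 40.3 CPM in nacRNAi, against 110, 88.1 and 97.4 CPM in wild type (log2 fold change -1.35, edgeR adjusted p = 2.63e-05). Zm00001d002024, at -0.25, was at 0.26 with library totals, and Zm00001d024412 rose to 0.534 ± 0.198 CPM in nacRNAi, against 0.0476 ± 0.0251 CPM in wild type, a level near the limit (SD, n = 3 each). The rise of Zm00001d024412 did not pass on log2(FPKM + 1) (limma adjusted p = 0.079).

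On the perception side, ABA receptor genes were lower in 6 and higher in 0 of 10 tested with edgeR and with DESeq2, and 1 was higher at an unadjusted p under 0.05. The median log2 fold change was -0.94. The receptors bind ABA and then block protein phosphatases 2C. A PYL9 gene (Zm00001d037719) was at 63.1, 62.0 and 62.8 CPM in nacRNAi and 224, 246 and 217 CPM in wild type (log2 fold change -1.87, SE 0.07, edgeR adjusted p = 2.27e-06). A PYL5 gene (Zm00001d043014) was at 16.3, 15.8 and 14.2 CPM in nacRNAi and 66.5, 73.1 and 66.1 CPM in wild type (-2.15, SE 0.08, edgeR adjusted p = 2.63e-06). With library totals 6 were lower and 2 higher, but on log2(FPKM + 1) 2 were lower and 4 higher, and there the PYL9 genes Zm00001d010445 (-0.97 in edgeR) and Zm00001d016105 (-0.91) were at -0.13 and -0.07 and did not pass.

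Of 84 tested protein phosphatase 2C genes, a family of which only some act on ABA signalling, 27 were higher and 23 lower (46 and 5 with library totals), with a median of 0.08. Protein phosphatase 2C 16 (Zm00001d038846) rose by 2.43, to 21.0 ± 1.38 CPM in nacRNAi against 3.90 ± 0.623 CPM in wild type (SD, n = 3 each). The SnRK2 kinases, a family of which only some are held in check by such phosphatases, were higher in 5 and lower in 3 of 13 (11 and 0 with library totals). Their median was 0.20. The SRK2A gene Zm00001d038326 was at 157, 159 and 154 CPM in nacRNAi and 86.2, 85.4 and 84.6 CPM in wild type (log2 fold change 0.87, edgeR adjusted p = 1.56e-05), and the SRK2E gene Zm00001d033339 rose by 1.75.

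Among ABA-linked transcription factors 9 were higher and 2 lower of 15 (12 and 0 with library totals), and without nacRNAi replicate 2 the higher count was 5. The median was 0.51. The risers included 3 of the 5 genes described as ABI5-like protein 5. The ABI5 gene itself (Zm00001d042779) was at 42.3, 90.4 and 81.3 CPM in nacRNAi and 22.3, 36.8 and 14.9 CPM in wild type (1.53, edgeR adjusted p = 0.0351), a call lost without wild-type replicate 1 or 3, without nacRNAi replicate 2 or 3, and without the filter on low counts. Viviparous-1 (Zm00001d042396), which encodes a maturation regulator, fell (log2 fold change -0.76, edgeR adjusted p = 0.00411), and with library totals was at -0.25 (edgeR adjusted p = 0.24).

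ABA-responsive protein genes were higher in 5 and lower in 7 of 31 tested (10 and 2 with library totals; with DESeq2 11 were lower), with a median of -0.26. Dehydrins, which protect drying cells, went both ways. Dehydrin COR410 (Zm00001d017547) was at 59.0, 40 and 31.7 CPM in nacRNAi and 3.37, 7.80 and 2.71 CPM in wild type (log2 fold change 3.24, edgeR adjusted p = 0.0033). Dehydrin DHN1 (Zm00001d037894) was at 15.9, 7.10 and 9.26 CPM in nacRNAi and 61.7, 68.8 and 46.6 CPM in wild type (-2.45, edgeR adjusted p = 0.00217). The gene dehydrin3 (Zm00001d051420) rose by 2.06.

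**Figure D4:**
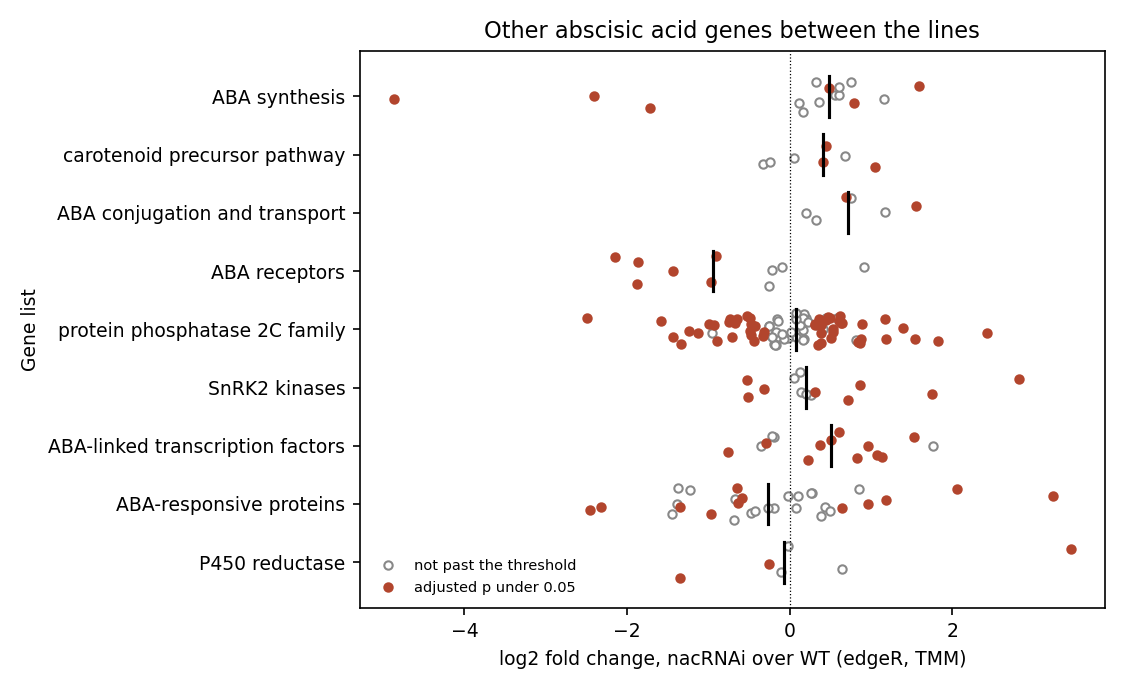
Log2 fold change, nacRNAi over wild type (horizontal axis), of every tested gene in 9 lists of ABA synthesis, transport, perception and response (vertical axis). Filled points passed the edgeR test at an adjusted p under 0.05, open points did not, and black bars are list medians; receptors have the lowest median, -0.94.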

How the data were processed

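Both deposited tables came from the authors and cover 6 libraries: read counts that are whole numbers, and FPKM, per the file headers. Libraries were made from total endosperm RNA with the Truseq mRNA kit according to the labels' protocols. The sources used here give no strand handling, aligner, counter, build or annotation release. Genes passing filterByExpr (22259 of 39179) were scaled by TMM and fitted in edgeR 4.0.16 (R 4.3.3; quasi-likelihood, robust), with p-values adjusted by Benjamini-Hochberg over all of them and a threshold of 0.05. The standard error is the absolute log2 fold change over the square root of F. Members and lists were chosen with earlier results of these data known. Genes named were all members, up to 4 called genes per list with the smallest p and the 5 most alike; others were named after their values were seen. Replicates differed beyond sampling noise (chi-square per degree of freedom 25.8 to 49.1). Same-numbered libraries of the lines did not deviate together (correlations 0.01, -0.05 and -0.10). Alternatives, which also used limma 3.58.1 and DESeq2 1.42.0, are listed at the end. Gene lists matched descriptions, which 29833 genes have, in Python 3.11.15. Depth was 55812999 to 69670876 counts per library.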

Additional observations from a re-analysis of the deposited data

How the results depend on the processing

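The directions of abh1, abh2 and abh3 were the same in all 15 alternatives, and those of abh4 and abh5 in all but the filter at 1 CPM, which both failed. With library totals abh3 was at -3.58 and abh4 at -0.54. On log2(FPKM + 0.1) abh1 to abh5 were at 2.57, -2.51, -3.31, -0.17 and -1.35. On log2(FPKM + 1) abh2 to abh5 were at -1.06, -3.17, -0.04 and -0.31. That scale understates changes of low genes, which abh3 is not. The median of all tested genes was also at 0.59 on log2(FPKM + 0.1) and at 0.38 on log2(FPKM + 1). What part each of these had in the smaller falls was not tested. With 1 library left out abh1 ran from 1.21 to 2.83, abh2 from -4.58 to -3.56, abh3 from -4.30 to -3.86, abh4 from -1.33 to -0.77 and abh5 from -2.95 to -2.09. The share of abh3 then ran from 47.6% to 55.5% in nacRNAi and 95.3% to 97.2% in wild type, and that of abh1 from 42.7% to 49.7% in nacRNAi and 0.917% to 2.10% in wild type.

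Over all genes 5171 were higher and 5348 lower. With library totals it was 11233 and 2004, on log2(FPKM + 1) 12657 and 1531, and on log2(FPKM + 0.1) 12659 and 1533. With 1 library left out 8525 to 9714 were called (4076 to 4792 higher, 4449 to 4922 lower). Of the ABA lists 100 were higher and 17 lower with library totals, and 110 and 12 or 111 and 12 on the FPKM scales. Without the phosphatases, an alternative chosen after seeing the data, 51 passed (28 higher, 23 lower), and with lists corrected from the descriptions, also chosen then, 55 were higher and 47 lower. With 1 library left out 80 to 98 passed (44 to 54 higher, 36 to 44 lower). With the replicate block 92 of these genes and 9273 of all genes passed (101 and 10519 without it), and abh1 to abh5 were at 2.03, -4.04, -4.14, -1.0 and -2.51. The libraries share only a number, and the block removed 3 named calls (Zm00001d035881, Zm00001d002024 and Zm00001d017767).

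Sign changes of named calls were at Zm00001d002024 (0.26 with library totals, 0.46 and 0.42 on the FPKM scales) and at an HVA22-like gene, Zm00001d037220 (0.12 and 0.11 on the FPKM scales). The cause was not tested. Counts of 7 to 28 limit abh4 in both lines, and abh2 and abh5 in nacRNAi.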
